A study of Mus musculus with 10 samples.

Results

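The genes described here are the RNA-binding proteins Lin28a and Lin28b, genes known as targets of the let-7 microRNAs (Trim71, Hmga1, Hmga2 and the IGF2BP family Igf2bp1, Igf2bp2 and Igf2bp3), and Dis3l2, the nuclease that degrades let-7 precursors tailed under the control of Lin28a. They were chosen by gene symbol, and their 9 rows were taken from a table of 51467 genes, of which 11683 were abundant enough to test. All 9 were among those tested. Messenger RNA was counted by 3′ end sequencing (QuantSeq) in mouse embryonic stem cells (ESCs) grown with serum, LIF and 2i, the inhibitors PD0325901 and CHIR99021. Wild-type (WT) cells of the V6.5 line gave 3 libraries. A Dgcr8 knockout line made earlier (DGCR8 KO), which lacks the partner that Drosha needs to release most miRNA hairpins, gave 3 more. DDX6 is a helicase that binds components of the decapping complex and acts in translational repression downstream of miRNAs. Cells lacking it (DDX6 KO) gave 4 libraries, being 2 from each of 2 clones cut by CRISPR in V6.5 cells. One clone carries a small insertion and the other a deletion, and all groups shared the same medium. DGCR8 KO is represented by a single line, so line and genotype cannot be told apart there. The same holds for each DDX6 KO clone taken alone. What both clones share besides the edit, such as a shift of chromosome 6 given below, cannot be told apart from genotype either.

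LIN28 proteins bind the terminal loop of let-7 precursors and recruit terminal uridylyl transferases, after which DIS3L2 degrades the tailed precursor. Mature let-7 in turn represses mRNAs with matches to its seed in the 3′ untranslated region (UTR), among them Lin28a, Lin28b, Trim71, Hmga2 and the Igf2bp genes. The result is a double negative circuit that keeps let-7 low in pluripotent cells. The ESCC miRNAs (miR-290 and miR-302 clusters), the most abundant miRNAs of ESCs, have another seed, and miR-125 is a further known repressor of Lin28a.

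The sequences below are shown because the circuit turns on the seed, bases 2 to 8 of the miRNA, which is in capitals. Mature mouse miRNAs in RefSeq (GRCm38.p6) were grouped by seed, and 11 have that of let-7a, so that 1 set of matches stands for these. They differ outside it, as the 5 let-7 sequences given first show. The next pair belongs to the ESCC family and the last pair to miR-125.
mmu-let-7a-5p: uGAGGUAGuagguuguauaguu
mmu-let-7b-5p: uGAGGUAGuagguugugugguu
mmu-let-7d-5p: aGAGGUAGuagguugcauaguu
mmu-let-7g-5p: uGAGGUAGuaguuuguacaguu
mmu-miR-98-5p: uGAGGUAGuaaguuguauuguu
mmu-miR-294-3p: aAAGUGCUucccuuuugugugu
mmu-miR-302b-3p: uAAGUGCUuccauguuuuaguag
mmu-miR-125a-5p: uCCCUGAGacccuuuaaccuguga
mmu-miR-125b-5p: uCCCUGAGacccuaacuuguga

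Matches were searched on the sense strand of the 3′ UTR of the main coding transcript of each gene (GRCm38). A let-7 match was CTACCTCA (8-base), CTACCTC or TACCTCA (7-base). An ESCC match was AGCACTTA, AGCACTT or GCACTTA, and a miR-125 match was CTCAGGGA, CTCAGGG or TCAGGGA. The last 4 bases of the 8-base let-7 match are the first 4 of the miR-125 match, but 0 of the 29 let-7 matches found in these genes overlapped a miR-125 match. Of these, the 3 sites of Lin28a are given next, then the first let-7 site and the ESCC and miR-125 sites of Lin28b, and 1 let-7 site from each other gene that has one. Capitals mark the bases that match, and all but the Hmga1 site are on the minus strand.
Lin28a let-7, chr4:134005178-134005207: agcctgttgaaCTACCTCAtttttgccgat
Lin28a let-7, chr4:134004540-134004569: tcgccacaaacCTACCTCActgtgttgaaa
Lin28a miR-125, chr4:134005290-134005319: acatgagcaatCTCAGGGAtaataagtccg
Lin28b let-7, chr10:45381011-45381040: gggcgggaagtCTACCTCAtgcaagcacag
Lin28b miR-125, chr10:45378787-45378816: aaagaactttgCTCAGGGAacataccatat
Lin28b ESCC, chr10:45378513-45378541: tcactgatatgAGCACTTgctcattcaca
Lin28b ESCC, chr10:45377015-45377043: atcaaccacagGCACTTAgcaccaggctg
Hmga2 let-7, chr10:120364213-120364242: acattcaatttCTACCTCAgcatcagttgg
Igf2bp3 let-7, chr6:49086776-49086805: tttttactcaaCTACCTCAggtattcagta
Igf2bp2 let-7, chr16:22059462-22059491: acaaataaaagCTACCTCAggtgtttttta
Igf2bp1 let-7, chr11:95961767-95961796: tgcgaagtaaaCTACCTCAaggtgtgaagt
Trim71 let-7, chr9:114512461-114512490: ttgcctaagtcCTACCTCAgcttaaatttt
Hmga1 let-7, chr17:27563281-27563309: ctgttcacaaaCTACCTCtggacggttgt

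A let-7 match was found in 8 of the 9 genes, and an 8-base match in 7 of them. Of the 10897 tested genes with an annotated 3′ UTR, 16.1% had a let-7 match and 3.52% an 8-base match. Long UTRs hold more matches by length alone, so each gene was set beside tested genes with a UTR of similar length. Hmga2 had 7 matches in 2977 bases, and 0.0732% of the 1367 genes of like length had as many. Trim71 had 6 in 5512 bases (0.422% of genes of like length had as many), Lin28b had 5 in 4445 bases (0.634%) and Igf2bp1 had 5 in 6337 bases (1.205%). Lin28a and Igf2bp2 had 2 each (4.64% and 3.07%), and Igf2bp3 and Hmga1 had 1 each (24.3% and 13.6%). Dis3l2, whose UTR has 347 bases, had none, which says only that these letters are not in that stretch. An ESCC match was found in 3 genes: Lin28b had 2, while Igf2bp1 and Trim71 had 1 each, and all 4 were 7-base matches. A miR-125 match was found in 6 genes, with 4 in Trim71 and 1 each in Lin28a, Lin28b, Hmga2, Igf2bp3 and Dis3l2. Such matches describe the letters of the UTR and do not show that a miRNA acts on them.

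**Figure D1:**
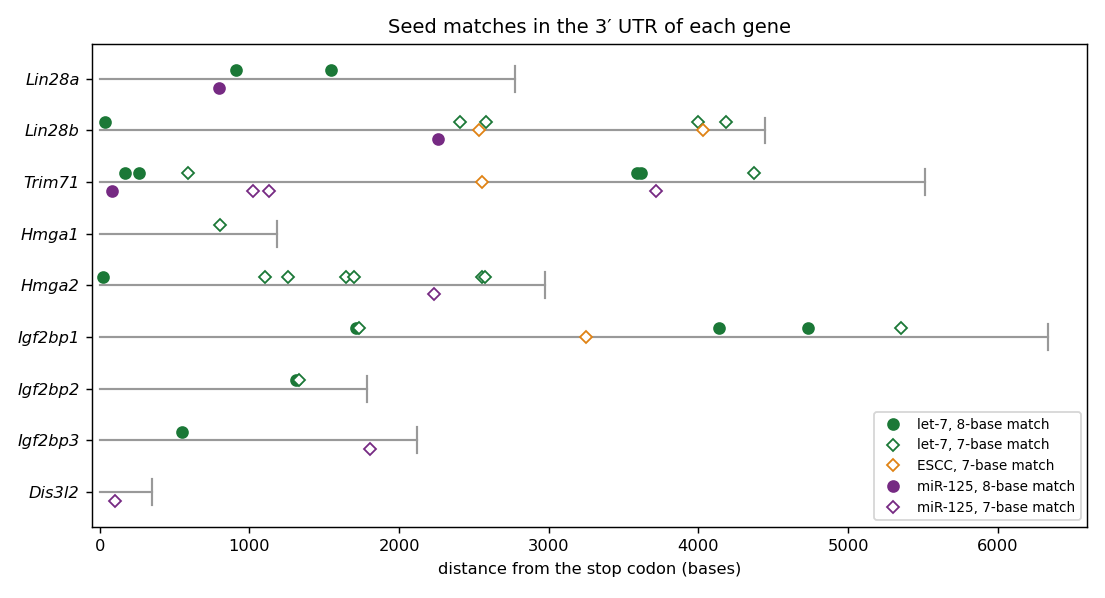
Each horizontal line is the 3′ UTR of a gene, drawn to scale in bases from the stop codon to its annotated end (vertical tick). Filled circles are 8-base and open diamonds 7-base matches to the let-7, ESCC or miR-125 seed, and the 7 let-7 matches of Hmga2 and the absence of any in Dis3l2 can be read along the rows.

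The total count over genes was 2131156 to 4745083 per library, and a floor of 3 counts was 0.632 to 1.41 CPM, the unit of count after scaling libraries to 1 size. Dgcr8 stood at 20.6% of its WT mean in DGCR8 KO ESCs and Ddx6 at 16.2% in DDX6 KO ESCs, with 26.4% in clone 1 and 6.02% in clone 2. Of 8 naive ESC markers, all were tested and their summed level was 3588 to 3967 CPM in WT, 3140 to 3557 in DGCR8 KO and 3677 to 3990 in DDX6 KO libraries. Summed levels of 8 epiblast markers were 261 to 342 in WT, 240 to 264 in DGCR8 KO and 124 to 161 in DDX6 KO libraries, with Fgf5 and Cer1 at 3 counts or fewer throughout. Members of these lists moved apart beneath their sums: on the adjusted p 1 naive marker was higher and 5 lower in DGCR8 KO, and 1 higher and 2 lower in DDX6 KO ESCs. Over all tested genes 19.9% were higher and 16.5% lower in DGCR8 KO, and 17.9% and 16.6% in DDX6 KO ESCs. Dppa3 was called lower in both (-2.29 and -2.11 on the log2 scale), and Nanog changed by -0.33 and 0.62. Of the 5 epiblast markers tested, 0 were higher and 2 lower in DGCR8 KO on the adjusted p, and 1 (Sox3, 1.31) was higher and 3 lower in DDX6 KO ESCs, Otx2 the most (-2.22). For 8 markers of primitive endoderm, another lineage such cultures can hold, they were 24.97 to 34.1, 10.997 to 15.9 and 37.2 to 42.5. For 8 fibroblast markers they were 5.45 to 9.14, 2.85 to 5.77 and 7.39 to 13.2. The part of these differences in the results below was not tested, and fewer cells of a type cannot be told apart from less RNA per cell in such bulk samples.

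Levels are given in CPM and are compared only between libraries for the same gene. The question was whether these genes change when canonical miRNAs, let-7 among them, cannot be made, and when DDX6 is absent. Changes were tested with limma over all 11683 genes, and a gene was called at an adjusted p under 0.05 with a log2 fold change above 1 or below -1. In DGCR8 KO against WT cells 3 of the 9 genes were called (Lin28b higher, Lin28a and Igf2bp3 lower), where 14.7% of all tested genes were, 8.93% higher and 5.81% lower. In DDX6 KO against WT cells 3 were called (Lin28b higher, Lin28a and Hmga2 lower), where 11.2% of all tested genes were, 7.55% higher and 3.66% lower. The adjusted p alone was passed by 5 genes without DGCR8 (36.3% of tested genes) and by 3 without DDX6 (34.5%). The median log2 fold change of the 9 was -0.15 in DGCR8 KO and -0.16 in DDX6 KO ESCs, against 0.00 and 0.02 over all tested genes. Libraries of the knockout and of WT did not overlap for 5 genes when DGCR8 was absent and for 4 when DDX6 was, where 44.8% and 39.9% of tested genes did not.

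**Figure D2:**
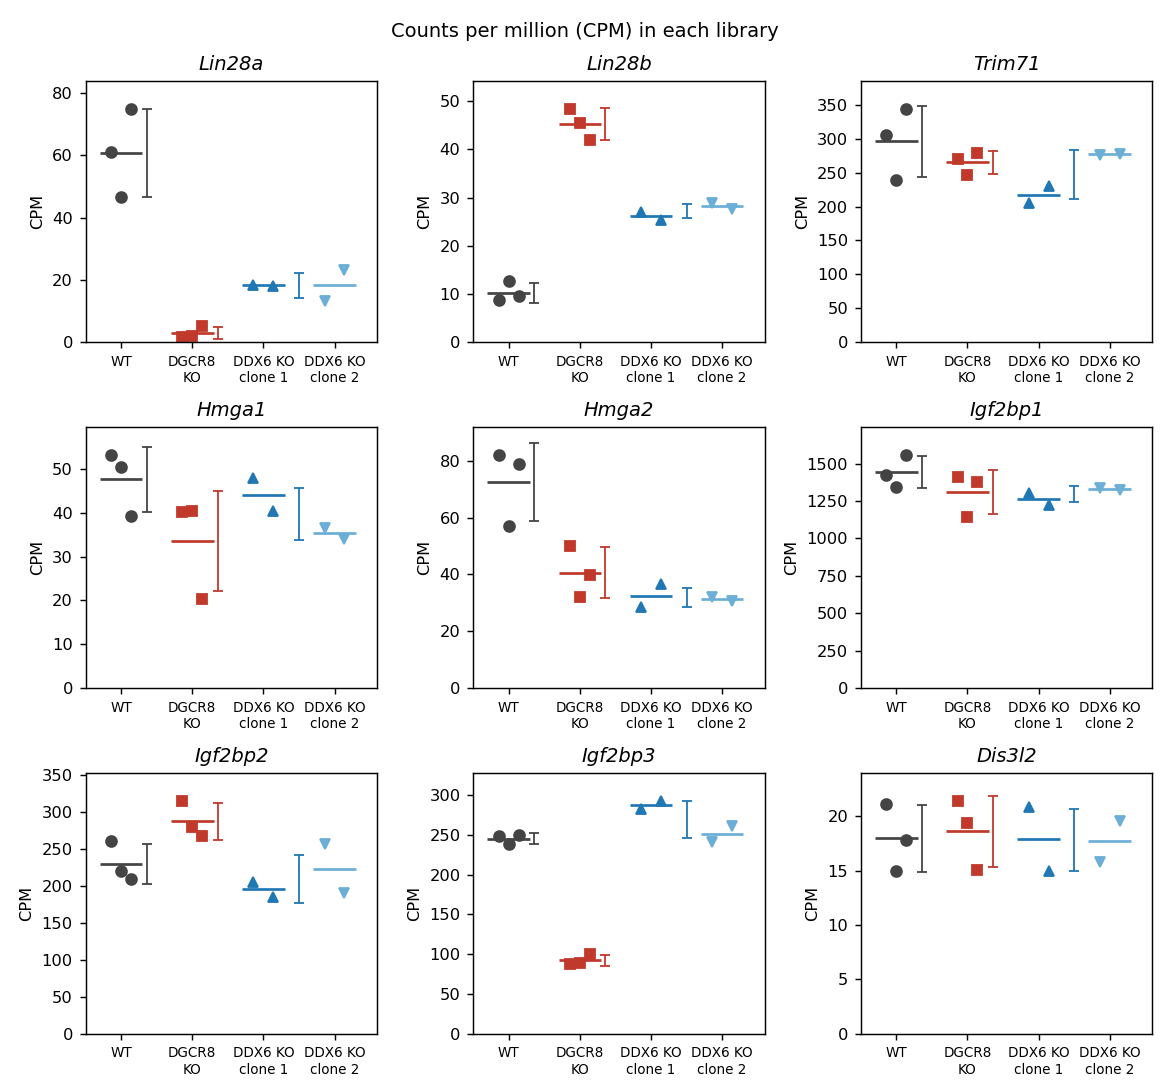
CPM (linear axis from 0) of each gene in every library, with a horizontal line at the mean of each group or clone. Vertical bars show the mean ± SD of WT (3 libraries), DGCR8 KO (3) and all DDX6 KO libraries (4, drawn between the clones). Lin28a is highest and Lin28b lowest in the WT libraries, and Igf2bp3 is low in the DGCR8 KO libraries alone.

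Lin28a (ENSMUSG00000050966, GRCm38 chr4:134003330-134018841, minus strand), the LIN28 protein that is mostly cytoplasmic, was nearly lost in DGCR8 KO ESCs and fell less far in DDX6 KO ESCs. In WT libraries it stood at 61.0, 46.7 and 74.9 CPM. In DGCR8 KO libraries it stood at 1.53, 2.04 and 5.29 CPM, which rest on 5, 6 and 13 counts. In DDX6 KO libraries it stood at 18.3 and 18.1 CPM in clone 1 and 13.4 and 23.2 CPM in clone 2. All libraries of WT lay above all of DDX6 KO, and those above all of DGCR8 KO. WT libraries averaged 60.9 ± 14.1 CPM (SD, n = 3), DGCR8 KO libraries 2.95 ± 2.04 (SD, n = 3) and DDX6 KO libraries 18.2 ± 4.03 (SD, n = 4), the second of these being 4.85% of the first. The log2 fold change was -4.55 in DGCR8 KO (SE 0.47, limma adjusted p = 8.0e-07) and -1.73 in DDX6 KO ESCs (SE 0.21, limma adjusted p = 8.8e-06). The knockouts differed from each other by -2.81 (SE 0.49, limma adjusted p = 1.4e-04), so that each step in the order WT, DDX6 KO, DGCR8 KO passed its test. With so few counts in DGCR8 KO ESCs the size of the decrease was less firm than its direction, and it ran from -4.99 to -4.18 over the alternatives.

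Lin28b (ENSMUSG00000063804, chr10:45376620-45470201, minus strand), the paralog with a nucleolar pool that binds primary let-7 transcripts, followed the reverse order. In WT libraries it stood at 8.64, 12.6 and 9.59 CPM. In DGCR8 KO libraries it stood at 48.4, 45.5 and 42.0 CPM, and in DDX6 KO libraries at 27.1 and 25.4 (clone 1) and 28.8 and 27.7 (clone 2). The groups did not overlap at any step. WT libraries averaged 10.3 ± 2.07 CPM (SD, n = 3), DGCR8 KO libraries 45.3 ± 3.22 (SD, n = 3) and DDX6 KO libraries 27.3 ± 1.44 (SD, n = 4), which is 4.40 and 2.65 times the WT mean. Its log2 fold change came to 2.14 in DGCR8 KO (SE 0.20, limma adjusted p = 2.4e-07) and 1.40 in DDX6 KO ESCs (SE 0.20, limma adjusted p = 4.1e-05). Between the knockouts the difference was 0.73 (SE 0.14, limma adjusted p = 4.7e-04), which passed the adjusted p but not the fold threshold. The changes of Lin28a and Lin28b were thus opposite in sign in either knockout, and larger in DGCR8 KO ESCs. Lin28b carries 5 let-7 and 2 ESCC matches in a UTR of 4445 bases, and Lin28a carries 2 and 0 in 2775 bases. As many ESCC matches as in Lin28b were found in 16.9% of genes of like UTR length. Whether the matches bear on these changes was not tested.

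The balance of the LIN28 pair was described by the ratio of Lin28a to Lin28b counts within a library, which needs no scaling between libraries. Counts at the 3′ ends of different transcripts need not be captured alike, so the ratio is set only against the same ratio in other libraries. It was 7.06, 3.70 and 7.81 in WT, 0.0316, 0.0448 and 0.126 in DGCR8 KO, 0.676 and 0.712 in clone 1 and 0.463 and 0.838 in clone 2 of DDX6 KO. The 3 groups were separate, with DDX6 KO libraries between the others. Lin28a made up 85.0 ± 5.44% of the counts of the pair in WT (SD, n = 3), 6.19 ± 4.39% in DGCR8 KO (SD, n = 3) and 39.8 ± 5.87% in DDX6 KO libraries (SD, n = 4).

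**Figure D3:**
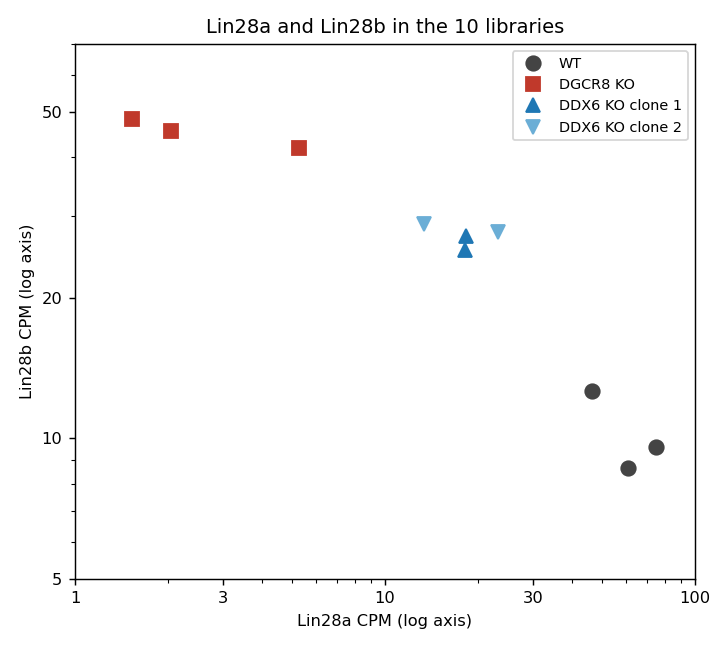
Each point is a library, placed by its CPM of Lin28a (x) and Lin28b (y), both on log axes, with the groups and clones marked by shape and colour. The WT libraries lie at the lower right, the DGCR8 KO libraries at the upper left, and the 4 DDX6 KO libraries together between them.

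Dis3l2 (ENSMUSG00000053333, chr1:86703819-87050095, plus strand), the exonuclease of the pathway, did not pass the test in any comparison. It stood at 21.1, 15.0 and 17.8 CPM in WT, 21.4, 19.3 and 15.1 in DGCR8 KO, and 20.9, 15.0, 15.8 and 19.6 in DDX6 KO libraries. These ranges lie on top of each other. This gave a log2 fold change of 0.09 in DGCR8 KO (95% interval -0.36 to 0.54, limma adjusted p = 0.78) and 0.01 in DDX6 KO ESCs (-0.41 to 0.43, limma adjusted p = 0.97), so a change of up to about these bounds could not be seen at 37 to 80 counts per library.

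Of 10 other genes that control let-7 biogenesis, 9 were tested and 0 were called in either knockout by limma, edgeR or DESeq2. Limma called 14.7% of all tested genes without DGCR8 and 11.2% without DDX6. An unadjusted p under 0.05 in limma was found for 2 without DGCR8 (45.5% of all tested genes) and 5 without DDX6 (44.3%). On the adjusted p alone, 2 were higher and 0 lower in DGCR8 KO (19.9% and 16.5% of tested genes), and 1 higher and 3 lower in DDX6 KO ESCs (17.9% and 16.6%). In DGCR8 KO ESCs the genes that passed were the miRNA-processing enzymes Dicer1 (log2 fold change 0.38) and Drosha (0.38). In DDX6 KO ESCs Tut4, the uridylyl transferase recruited by Lin28a, was higher (0.41), while the nuclear export receptor Xpo5 (-0.76), Trim25, a cofactor of Lin28a (-0.64), and Khsrp, which promotes let-7 processing (-0.31), were lower. In clone 1 alone 0 of the 9 were higher, so Tut4 did not pass there, and 2 were lower (1534 and 1246 of 11683 tested genes). In clone 2 alone 1 was higher and 3 lower (1513 and 1361 of 11683). The median of the 9 was 0.10 in DGCR8 KO and -0.31 in DDX6 KO ESCs. The let-7 hairpin genes themselves gave almost no counts. Of 12 hairpin genes, 8 had 0 counts in all 10 libraries and the highest count of any was 3, and neither mature let-7 nor its primary transcripts are measured by reads in these intervals. The host genes Huwe1 and Wdr82 had log2 fold changes of 0.27 and 0.03 in DGCR8 KO and -0.17 and -0.16 in DDX6 KO ESCs, of which the first passed (limma adjusted p = 0.046).

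Among the let-7 targets, the architectural chromatin protein Hmga2 (ENSMUSG00000056758, chr10:120361275-120476469, minus strand) was lower in both knockouts. It stood at 82.1, 56.9 and 78.7 CPM in WT, 49.9, 31.9 and 39.9 in DGCR8 KO, 28.6 and 36.5 in clone 1 and 32.0 and 30.5 in clone 2. All knockout libraries lay below all WT libraries. WT libraries averaged 72.6 ± 13.7 CPM (SD, n = 3), DGCR8 KO libraries 40.6 ± 9.02 (SD, n = 3) and DDX6 KO libraries 31.9 ± 3.39 (SD, n = 4). In log2 terms the change was -0.83 in DGCR8 KO (SE 0.18, limma adjusted p = 0.0012), short of the fold threshold, and -1.17 in DDX6 KO ESCs (SE 0.17, limma adjusted p = 4.8e-05). Without DGCR8 KO replicate 1 the former was -1.01 and was called. The difference between the knockouts was 0.34 (95% interval -0.05 to 0.73, limma adjusted p = 0.15), and 0.51 without DGCR8 KO replicate 2 (limma adjusted p = 0.036, with 0.036 to 0.59 over all alternatives). Hmga2 had the most let-7 matches of the 9 genes, and whether these matches bear on its change was not tested.

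Its relative Hmga1 (ENSMUSG00000046711, chr17:27556620-27563674, plus strand) stood at 53.3, 50.4 and 39.2 CPM in WT, 40.1, 40.4 and 20.4 in DGCR8 KO, and 48.0, 40.3, 36.6 and 34.1 in DDX6 KO libraries, with overlap between the groups. Its log2 fold change was -0.48 in DGCR8 KO (SE 0.22, limma adjusted p = 0.091) and -0.23 in DDX6 KO ESCs (SE 0.19, limma adjusted p = 0.37). With the library number as a block, which pairs WT and DGCR8 KO libraries, the former was -0.52 and passed (limma adjusted p = 0.011, with 0.011 to 0.46 over all alternatives). Without WT replicate 3 or DGCR8 KO replicate 2 it passed as well (limma adjusted p = 0.047 and 0.04987). The value of Hmga1 is uncertain for another reason, since 88.9% of the 50-base stretches in its last 500 bases also occur in Hmga1b, a near-identical gene on chromosome 11, and uniquely mapped reads could fall to either or be lost. Hmga1b had 8.64, 9.54 and 7.36 CPM in WT and 3.98, 7.80 and 2.04 in DGCR8 KO libraries. With the counts of both genes summed, a setting added after the overlap was seen, the log2 fold change in DGCR8 KO ESCs was -0.55 (limma adjusted p = 0.055).

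Trim71 (ENSMUSG00000079259, chr9:114507133-114564369, minus strand), a ubiquitin ligase and RNA-binding repressor and the vertebrate counterpart of the worm let-7 target lin-41, stood at 305, 240 and 344 CPM in WT, 270, 246 and 279 in DGCR8 KO, 205 and 230 in clone 1 and 276 and 277 in clone 2. The DGCR8 KO range lay within that of WT. The log2 fold change was -0.15 in DGCR8 KO (95% interval -0.44 to 0.13, limma adjusted p = 0.40) and -0.26 in DDX6 KO ESCs (-0.53 to 0.01, limma adjusted p = 0.13). Against WT, clone 1 gave -0.44 (limma adjusted p = 0.034) and clone 2 gave -0.09 (limma adjusted p = 0.68), but the difference between the clones (0.35) did not pass. Without WT replicate 2, the lowest WT library, the pooled DDX6 KO value was -0.41 (limma adjusted p = 0.023, with 0.023 to 0.73 over all alternatives).

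**Figure D4:**
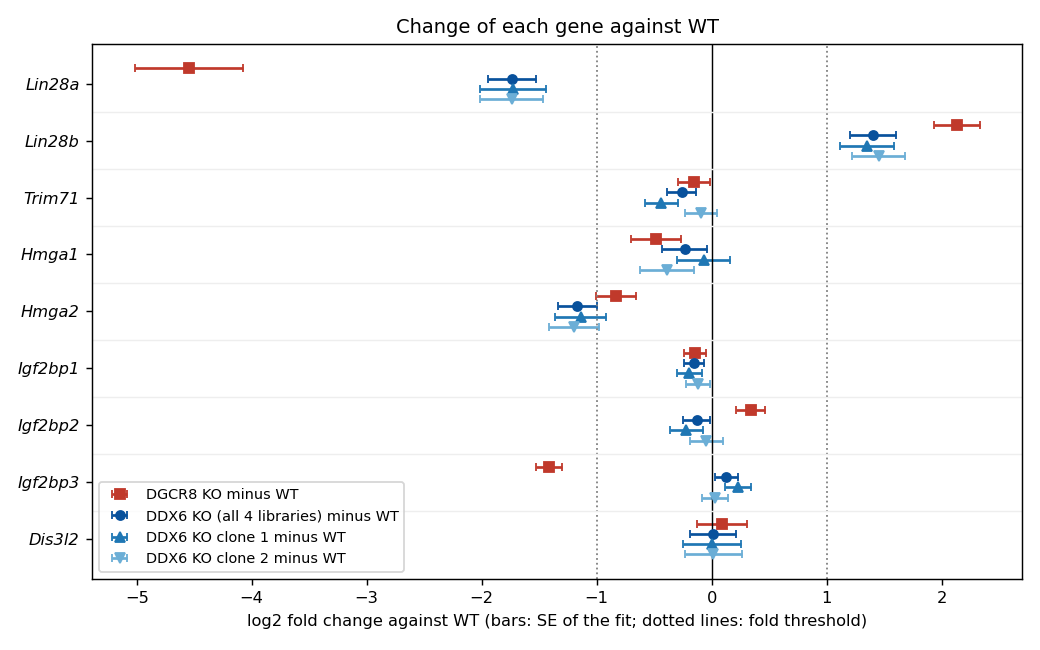
Log2 fold change of each gene against WT (x) with the SE of the fit, for DGCR8 KO, for all DDX6 KO libraries, and for each DDX6 KO clone. Dotted lines mark the fold threshold of 1. The clones lie close together for Lin28a, Lin28b and Hmga2, and Igf2bp3 is beyond the threshold in DGCR8 KO ESCs only.

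The IGF2BP proteins bind mRNAs in the cytoplasm and are known to stabilise and localise them, and their genes did not change together. Igf2bp3 (ENSMUSG00000029814, chr6:49085223-49214957, minus strand) stood at 248, 238 and 249 CPM in WT, at 87.3, 89.2 and 100.2 in DGCR8 KO, at 282 and 293 in clone 1 and at 240 and 261 in clone 2. The DGCR8 KO libraries lay far below the rest. WT libraries averaged 245 ± 6.39 CPM (SD, n = 3), DGCR8 KO libraries 92.2 ± 6.96 (SD, n = 3) and DDX6 KO libraries 269 ± 23.4 (SD, n = 4). Its log2 fold change came to -1.42 in DGCR8 KO (SE 0.11, limma adjusted p = 4.8e-08), which is 37.6% of the WT mean. In DDX6 KO ESCs it was 0.13 (95% interval -0.07 to 0.33, limma adjusted p = 0.32), or 0.25 with total counts as the library sizes (limma adjusted p = 0.044, with 0.044 to 0.83 over all alternatives), and the knockouts differed by -1.54 (SE 0.11, limma adjusted p = 5.0e-09).

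A pair of measurements bear on the reading of Igf2bp3. The 561 tested genes on its chromosome, 6, had a median log2 fold change of 0.59 in DDX6 KO ESCs. That median was 0.64 in clone 1 and 0.56 in clone 2, so both clones shared the shift. Igf2bp3 lay 0.46 below the median of 0.59, and 19.6% of the chromosome's genes lay lower. In DGCR8 KO ESCs the median of the chromosome was 0.07, and 5.70% of its genes lay lower than Igf2bp3. Its last 500 bases overlap Malsu1 on the opposite strand throughout. Counting was by strand, and Malsu1 averaged 63.0 ± 10.1 CPM in WT (SD, n = 3), 68.3 ± 7.70 in DGCR8 KO (SD, n = 3) and 69.99 ± 11.8 in DDX6 KO libraries (SD, n = 4), which did not pass the test in either.

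Igf2bp2 (ENSMUSG00000033581, chr16:22059009-22163299, minus strand) stood at 261, 220 and 209 CPM in WT, 316, 279 and 268 in DGCR8 KO, and 205, 186, 257 and 190 in DDX6 KO libraries. All 3 DGCR8 KO libraries lay above the others. This gave a log2 fold change of 0.34 in DGCR8 KO (SE 0.13, limma adjusted p = 0.043) and -0.13 in DDX6 KO ESCs (SE 0.12, limma adjusted p = 0.42), and the knockouts differed by 0.47 (SE 0.12, limma adjusted p = 0.0037). The first of these did not hold with the edgeR quasi-likelihood test (adjusted p = 0.057) or DESeq2 (adjusted p = 0.082). It was lost likewise without WT replicate 2 (limma adjusted p = 0.11) or 3 (0.18). The same held without DGCR8 KO replicate 1 (0.18) or the first library of clone 1 (0.060). Limma also lost it with DESeq2 size factors (adjusted p = 0.058), total counts (0.051) and no filter (0.055). So did limma-trend (0.057) and limma with clone 2 as the only DDX6 KO libraries (0.065). It was thus lost in 11 of 21 alternatives, over which the adjusted p ran from 0.0090 to 0.18. The difference between the knockouts did not pass with clone 2 as the only DDX6 KO libraries (0.36, limma adjusted p = 0.072), the highest adjusted p over its alternatives.

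Igf2bp1 (ENSMUSG00000013415, chr11:95957163-96005940, minus strand) was measured with 2964 to 6991 counts per library. It stood at 1423, 1345 and 1559 CPM in WT, 1413, 1140 and 1378 in DGCR8 KO, and 1306, 1221, 1334 and 1325 in DDX6 KO libraries. The DDX6 KO libraries lay just below the WT libraries, and the DGCR8 KO libraries overlapped them. In log2 terms the change was -0.15 in DGCR8 KO (95% interval -0.34 to 0.05, limma adjusted p = 0.24) and -0.16 in DDX6 KO ESCs (-0.34 to 0.03, limma adjusted p = 0.18). At this depth the intervals leave room for a decrease of at most 0.34 on the log2 scale. Its mean was below that of WT in both knockouts, by changes that did not pass. Igf2bp1 has 5 let-7 matches, 3 of them 8-base, and a link between matches and level was not tested.

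Of 10 known partners and bound RNAs of the IGF2BP proteins, 9 were tested, with a median of -0.22 in both knockouts. Limma, edgeR and DESeq2 called 0 of them, where limma called 14.7% of all tested genes without DGCR8 and 11.2% without DDX6. An unadjusted p under 0.05 in limma was found for 6 without DGCR8 and 5 without DDX6, where 45.5% and 44.3% of all tested genes had one. On the adjusted p alone, 0 were higher and 3 lower in DGCR8 KO ESCs (19.9% and 16.5% of tested genes). In DDX6 KO ESCs 1 was higher and 4 lower (17.9% and 16.6%). The mRNA of the poly(A)-binding protein Pabpc1 was lower in both, by -0.63 and -0.88. Igf2, the growth factor mRNA after which the family is named, was lower in DGCR8 KO ESCs (-0.89), whereas it was higher in DDX6 KO ESCs (0.73). The third gene lower in DGCR8 KO ESCs was the stabilising factor Elavl1 (-0.60), on chromosome 8, whose 644 tested genes had a median of -0.45 there.

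The direct comparison of the knockouts asked where their effects part. It called 2 of the 9 genes, Lin28a and Igf2bp3, both lower in DGCR8 KO ESCs, where 17.1% of all tested genes were called and 9.32% were called lower. On the adjusted p alone Lin28b and Igf2bp2 were added, where 44.0% of tested genes passed. The comparison of clone 2 with clone 1 of DDX6 KO called 0 of the 9 genes in limma (0.0428% of tested genes), and 1 gene, Trim71, had an unadjusted p under 0.05 (2.43% of tested genes), as it did with edgeR and DESeq2, which also called none. Each clone on its own called the same 3 genes against WT as both together, where 9.79% of tested genes were called in clone 1 and 9.92% in clone 2. For Lin28a the value was -1.73 in clone 1 and -1.74 in clone 2, for Lin28b 1.35 and 1.45, and for Hmga2 -1.14 and -1.19. Ddx6 mRNA itself was lower in clone 2 than in clone 1 by -2.18 (SE 0.19, limma adjusted p = 3.1e-05).

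To place these genes among others of their kind, 25 further known let-7 targets were described, of which 23 were tested. In DGCR8 KO ESCs 5 were called higher and 1 lower (8.93% and 5.81% of all tested genes), and on the adjusted p alone 10 were higher and 8 lower (19.9% and 16.5%). In DDX6 KO ESCs 2 were called higher and 1 lower (7.55% and 3.66%), and on the adjusted p alone 5 were higher and 6 lower (17.9% and 16.6%). The median was 0.25 in DGCR8 KO and -0.09 in DDX6 KO ESCs. As with the 9 genes, there was no shared direction. The genes called higher in DGCR8 KO ESCs were Ccnd2 (2.91), Cdk6 (1.75), Plagl2 (1.52), Ccnd1 (1.42) and Mycn (1.04), and the called decrease was that of Rrm2 (-1.27), the ribonucleotide reductase subunit.

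Cyclin D2 (Ccnd2) rose from 16.8 to 132 CPM on average in DGCR8 KO ESCs, with 112.7 as its lowest library there and 19.2 as the highest in WT. In DDX6 KO ESCs, where its chromosome 6 was shifted, it had a log2 fold change of 0.46 that did not pass (limma adjusted p = 0.086). Cyclin D1 (Ccnd1) moved in opposite directions, from 341 CPM in WT to 924 in DGCR8 KO and 248 in DDX6 KO ESCs, the latter a log2 fold change of -0.45 (limma adjusted p = 0.021). Cdk6, their kinase partner, was called in both knockouts, with 79.3 CPM in WT, 266 in DGCR8 KO and 181 in DDX6 KO ESCs. In DDX6 KO ESCs the transcription factors Onecut2 (1.16) and Sall4 (-1.03) were the other genes called. Against WT, Cdk6 was called in each clone taken alone, while Onecut2 was called in neither (1.15 in clone 1 and 1.17 in clone 2, limma adjusted p = 0.064 and 0.051). Sall4 was called in clone 1 (-1.22) but was short of the fold threshold in clone 2 (-0.85).

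**Figure D5:**
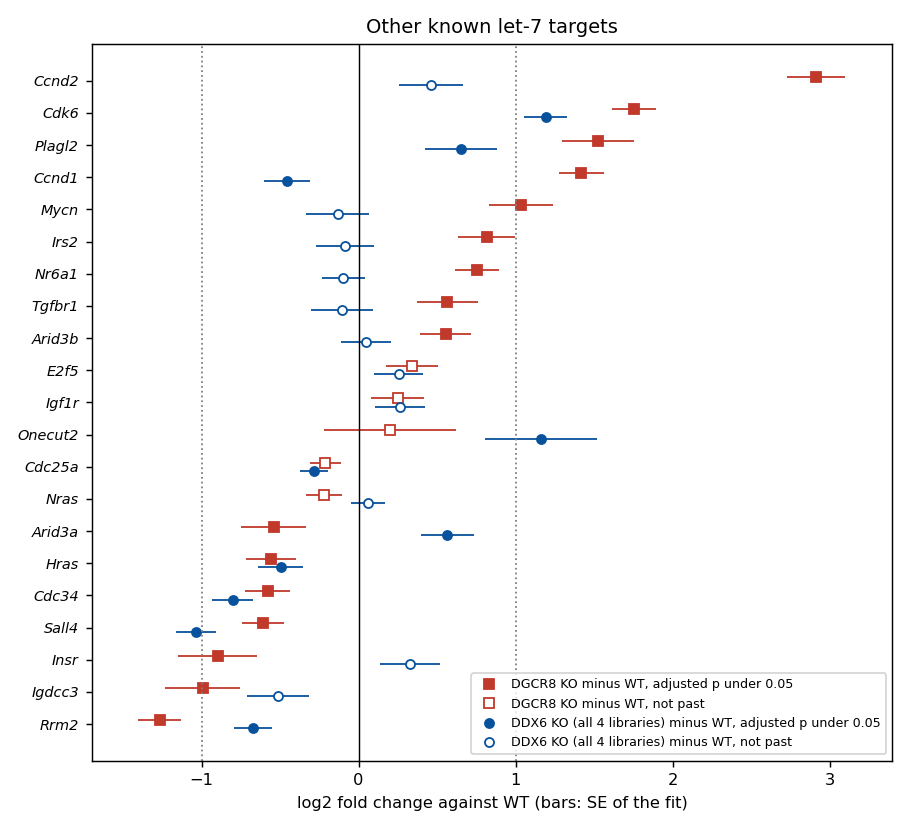
Log2 fold change against WT (x) with the SE of the fit for 21 of the 23 tested genes of the list of other known let-7 targets, ordered by their value in DGCR8 KO ESCs (squares) and with DDX6 KO ESCs beside it (circles). Filled symbols passed the adjusted p of 0.05, and dotted lines mark the fold threshold. Values lie on both sides of 0 in both knockouts.

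Of the 23 genes, 21 had a let-7 match. A division made after their values were seen is given as a description only. The 10 that also had an ESCC match had a median log2 fold change of 0.80 in DGCR8 KO and 0.26 in DDX6 KO ESCs, and in the former 6 were higher and 0 lower on the adjusted p. The 11 with no ESCC match had medians of -0.54 and -0.23, and in DGCR8 KO ESCs 3 were higher and 7 lower. Among the 11 are Insr and Irs2 on chromosome 8, whose genes were shifted down in DGCR8 KO ESCs as given above.

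The same was described over tested genes with an annotated 3′ UTR, leaving out only the 9 genes and not the list above. Genes with both a let-7 and an ESCC match are in none of the sets given here. The 1176 with a let-7 match and no ESCC match had a median log2 fold change of 0.04 in DGCR8 KO and 0.07 in DDX6 KO ESCs. The 7536 genes with neither match had -0.05 and 0.00. The 1610 genes with an ESCC match and no let-7 match had 0.23 and 0.11. For genes with a let-7 match alone 9.01% were called higher in DGCR8 KO ESCs, against 16.1% for an ESCC match alone and 7.07% for neither, and 5.44%, 3.04% and 6.04% were called lower. In DDX6 KO ESCs the shares called higher were 8.59%, 7.58% and 7.32%, and those called lower 2.72%, 2.48% and 3.46%. With at least 2 let-7 matches and no ESCC match, 171 genes had medians of -0.01 and 0.12. The median UTR length was 1920 bases with a let-7 match alone, 2051 with an ESCC match alone and 728 with neither, and the part of length in these values was not tested.

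The genes whose pattern was most like that of each LIN28 paralog were found by Pearson's r of log2 CPM over the 10 libraries, among 8341 named genes that averaged 10 CPM or more. The points share their groups, so r mainly reflects the order of the 3 group means, and 160 genes had an r over 0.9 with Lin28a and 200 with Lin28b. Among the 5 closest to Lin28a were Tex15, a germ cell factor (r = 0.988), Nup133, a nuclear pore subunit (0.984), the linker histone Hist1h1b (0.982) and Dbi, which binds acyl-CoA (0.978). Their log2 fold changes in DGCR8 KO ESCs were -2.42, -0.95, -1.25 and -1.40, all smaller than that of Lin28a, and Tex15 and Nup133 lie on chromosome 8. Closest to Lin28b were the sorting receptor Sorl1 (r = 0.992), the kinase Ttbk2 (0.989), the membrane protein Myof (0.986), Ccdc141 (0.982) and the zinc finger protein Zkscan1 (0.981). Their log2 fold changes were 1.74, 1.49, 1.203, 3.78 and 1.48 in DGCR8 KO and 1.17, 0.93, 0.82, 2.78 and 1.02 in DDX6 KO ESCs.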

How the data were processed

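The deposited values are raw counts: per the study and the file header, the authors trimmed the reads, aligned them to mm10, and counted uniquely mapped reads on the sense strand of annotated exons (cutadapt 1.14, STAR 2.5.3a and featureCounts 1.5.3 in the submitters' processing notes). Molecular identifiers are not mentioned, and the floor of 3 counts covers counting error only. The 92 spike-in sequences were set apart. Of 51467 genes 51274 were paired with a symbol through a GRCm38 annotation, which also gave coordinates and UTRs. Libraries were grouped by their titles.

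Genes that reached 3 CPM in 3 or more libraries were tested in 1 model of all 10 libraries (TMM scaling in edgeR 4.0.16, voom weights and empirical Bayes in limma 3.58.1, R 4.3.3). The study does not state the transformation, so voom was chosen here. A second model with a group for each clone gave the clone comparisons. P-values are two-sided and adjusted by Benjamini-Hochberg over all 11683 genes. Nothing in the labels says that libraries of a group came from separate cultures, so p-values measure the spread between these libraries, which may be technical. The model was tested on simulated counts.

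Members, lists and tests were chosen with earlier results of these data known. The rule for names took all 9 genes, from each list the called genes (at most 4 per knockout, by adjusted p), and the 5 genes most like each LIN28 paralog. Other list genes were named after their values were seen, and single values of 3 genes the rule or a list took are not reported here. The other lists were let-7 biogenesis control, let-7 hairpins and hosts (15 of 16 symbols in the table), other let-7 targets, IGF2BP partners and bound RNAs, and 4 marker lists. Library numbers were taken to pair WT with DGCR8 KO libraries, since deviations from the group means correlated for every same-numbered pair (r = 0.112, 0.233 and 0.236 over genes), while same-numbered WT and DDX6 KO libraries gave r from -0.0333 to 0.124. The pairing is uncertain, since WT replicate 3 and the second library of clone 2, with different numbers, gave 0.156. The main model held no pairing, and the replicate block used the numbers of all 10 libraries. The alternatives were other scaling, filters and tests (edgeR quasi-likelihood, DESeq2 1.42.0, limma-trend), each library left out, a replicate block, each clone alone, and 8-base matches only.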

Additional observations from a re-analysis of the deposited data

Results flagged for a closer look

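The effects of the knockouts, both set against the same WT libraries, were compared by a direct test of DGCR8 KO against DDX6 KO cells. Of the 15 genes checked, 10 differed (limma, adjusted p under 0.05 over all genes tested). Of the 9 genes of the circuit 4 differed, where 44.0% of all tested genes did. They were Lin28a (log2 difference DGCR8 KO minus DDX6 KO of -2.81), Lin28b (0.73), Igf2bp2 (0.47) and Igf2bp3 (-1.54). Lin28a and Lin28b moved the same way in both knockouts and by different amounts, while Igf2bp3 passed its test against WT in DGCR8 KO cells alone. The difference for Igf2bp2 did not pass with clone 2 as the only DDX6 KO cells (0.36, adjusted p = 0.072). The 6 other let-7 targets checked were chosen because they were called against WT, so how many of them differed has no fair background. Their differences were 2.45 for Ccnd2, 1.87 for Ccnd1, 0.56 for Cdk6, 0.42 for Sall4, -0.60 for Rrm2 and -0.96 for Onecut2. In the 4 DDX6 KO libraries no single library of these genes stood apart from the other three by the Dixon criterion, which chance alone meets in about 1 of 20 groups.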

How the results depend on the processing

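Over the alternatives, 12 of the 36 values of the 9 genes in 4 comparisons had passed the adjusted p, none of the 12 changed sign, and 2 lost the threshold in some setting, both of Igf2bp2. The count of called genes was 3 in DDX6 KO against WT and 0 between the clones under every alternative. In DGCR8 KO against WT it was 3, except for 4 without DGCR8 KO replicate 1 and 5 by the adjusted p alone, and in the direct comparison it was 2, except for 4 by the adjusted p alone. The replicate block changed the side of the threshold for Hmga1 without DGCR8 (-0.52) and without DDX6 (-0.47, adjusted p = 0.025), where the numbers were not taken to pair the libraries, and for no other value. Of the 24 values that had not passed, 10 changed sign in some setting and 5 passed in some setting. Where leaving out a library left a clone with 1, its spread was assumed to be that of the other groups. With 8-base matches only, 7 genes had a let-7 match. Depth limited Lin28a in DGCR8 KO cells most, with 5 to 13 counts, and Lin28b in WT cells next, with 18 to 43.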
